A study of Mus musculus with 8 samples.

Results

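The genes described here serve one route, by which a macrophage takes up haemoglobin, breaks down its haem and handles the iron that is set free. The group holds 10 genes chosen by name, of 18193 genes measured: Cd163, Hp and Lrp1 for uptake, Hmox1, Blvra and Blvrb for haem breakdown, and Slc40a1, Fth1, Tfrc and Slc11a1 for iron. They have 18 of the 45101 probe sets of an Affymetrix mouse array, of which 3 are array controls for Tfrc and 15 entered the tests. All values are the authors' deposited log2 levels, so a step of 1 log2 unit is a doubling, and probe sets differ in brightness, so a level was set only against the same probe set on other arrays.

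RNA came from peritoneal macrophages of male C57BL6/J mice, drawn to the cavity with 3% thioglycolate, collected on day 4 and kept by adherence. The 4 groups have 2 arrays each: knockout cells (MR fl / fl, LysM cre) with corticosterone, knockout cells without hormone, control cells (MR fl / fl) with corticosterone, and control cells without hormone. Corticosterone, the main glucocorticoid of mice, was given at 1 µM for 24 h; it binds both the glucocorticoid receptor and the mineralocorticoid receptor (MR, gene Nr3c2). Both genotypes carry the floxed allele, and the knockout adds a Cre driven by a lysozyme promoter that is active in myeloid cells including neutrophils, so cells of other lineages in the dish would keep the receptor. Each sample is a pool of triplicate experiments per the labels, which call the 2 replicates of a group biological. A p-value therefore reflects the spread of pools, and what such pools share is not stated, so this spread may be technical.

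Haemoglobin freed from broken red cells is bound by haptoglobin, the product of Hp, and the complex is taken up by CD163, a receptor of monocytes and macrophages. Free haem bound to haemopexin enters through LRP1. Haem oxygenase 1 opens the haem ring and releases iron, carbon monoxide and biliverdin, which the biliverdin reductases turn into bilirubin. The iron is stored in ferritin or leaves the cell through ferroportin, the product of Slc40a1. Glucocorticoids are known inducers of CD163 in human and rodent macrophages, and haptoglobin is an acute phase protein that the liver and some myeloid cells make.

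The second array of untreated control cells stood apart from the other 7. Its median correlation with the others was 0.916, against 0.995 for the other control untreated array, and the 3′ signal exceeded the 5′ signal by 2.18 for Actb and 1.84 for Gapdh, against 0.41 to 0.62 and 0.65 to 0.79 on the other 7 arrays. The mean of a joint list of mesothelial and fibroblast markers was higher on this array (8.42, against 6.68 to 7.09 elsewhere). Col1a2 (12.53), Pdgfra (12.05) and Wt1 (6.63) had their highest level there. The mesothelial genes Upk3b (5.36), Msln (3.82), Lrrn4 (3.37) and Krt19 (5.11) did not. The erythroid list mean was 4.61, against 3.50 to 3.74, mainly through Slc4a1 (8.47) and Alas2 (4.88), while Epb42 (4.09) was at its lowest. The cell cycle list mean (10.72, against 8.07 to 9.45) and Nr3c2 itself (8.46) were also higher. Whether RNA quality, another mix of cells or an exchange of samples lies behind these values was not tested, so what this array says of untreated control cells is uncertain. Nr3c2 read 5.11 and 5.47 in knockout cells with corticosterone and 5.54 and 5.82 in knockout cells without, against 6.39 and 6.13 in control cells with corticosterone and 6.39 on the other untreated control array. Every comparison is therefore given with 8 arrays and with 7, the second without that array; the fit then has 1 untreated control array, which is assumed to vary like the other groups. Macrophage markers were high on the 7 arrays (list mean 12.08 to 12.36) and read 11.56 on the odd one. The haemoglobin gene Hba-a1 lay between 2.57 and 3.17 on all 8. Its lowest level was on the first untreated control array, so with 7 arrays it rose by 0.53 with corticosterone in control cells.

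Cd163 was the member that moved most with the hormone, in both genotypes and by about the same amount. Hp differed most between genotypes. Hp and Slc40a1 read lower in untreated control cells than in the other groups on the 7 arrays, Blvrb fell modestly with corticosterone, and Lrp1, Blvra, Fth1, Tfrc and Slc11a1 passed in no comparison with either set of arrays.

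With 7 arrays, 3 of the 10 members passed limma's test (adjusted p under 0.05 over all genes) for corticosterone in knockout cells, where 13.7% of all genes passed, 5.75% higher and 7.95% lower. In control cells 4 members passed, against 10.8% of all genes, 4.85% higher and 5.95% lower. For knockout against control, 1 member passed with corticosterone and 2 without it; all were higher in the knockout, where 1.29% and 1.43% of all genes were higher, 0.335% and 0.555% lower, and 1.63% and 1.99% passed in all. The interaction of genotype and hormone called 1 member and 0.0165% of all genes. The members' median change lay near that of all genes in each comparison: 0.027 against −0.019 log2 units for the hormone in knockout cells, 0.072 against −0.0047 in control cells, −0.0013 against 0.00014 for genotype with corticosterone 0.0032 against 0.013 without, and 0.006 against −0.0097 for the interaction.

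With all 8 arrays only Cd163 passed, for the hormone in each genotype, where 0.148% of all genes passed in knockout cells and 0.17% in control cells. In the genotype comparisons and the interaction limma called 0 members and 0% of all genes. The unadjusted p was under 0.05 there for 1 member each and for 229 genes (genotype with corticosterone), 807 genes (genotype without) and 199 genes (interaction). The median SE of a difference was 0.20 log2 units with 8 arrays and 0.105 for the hormone in knockout cells with 7.

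**Figure D1:**
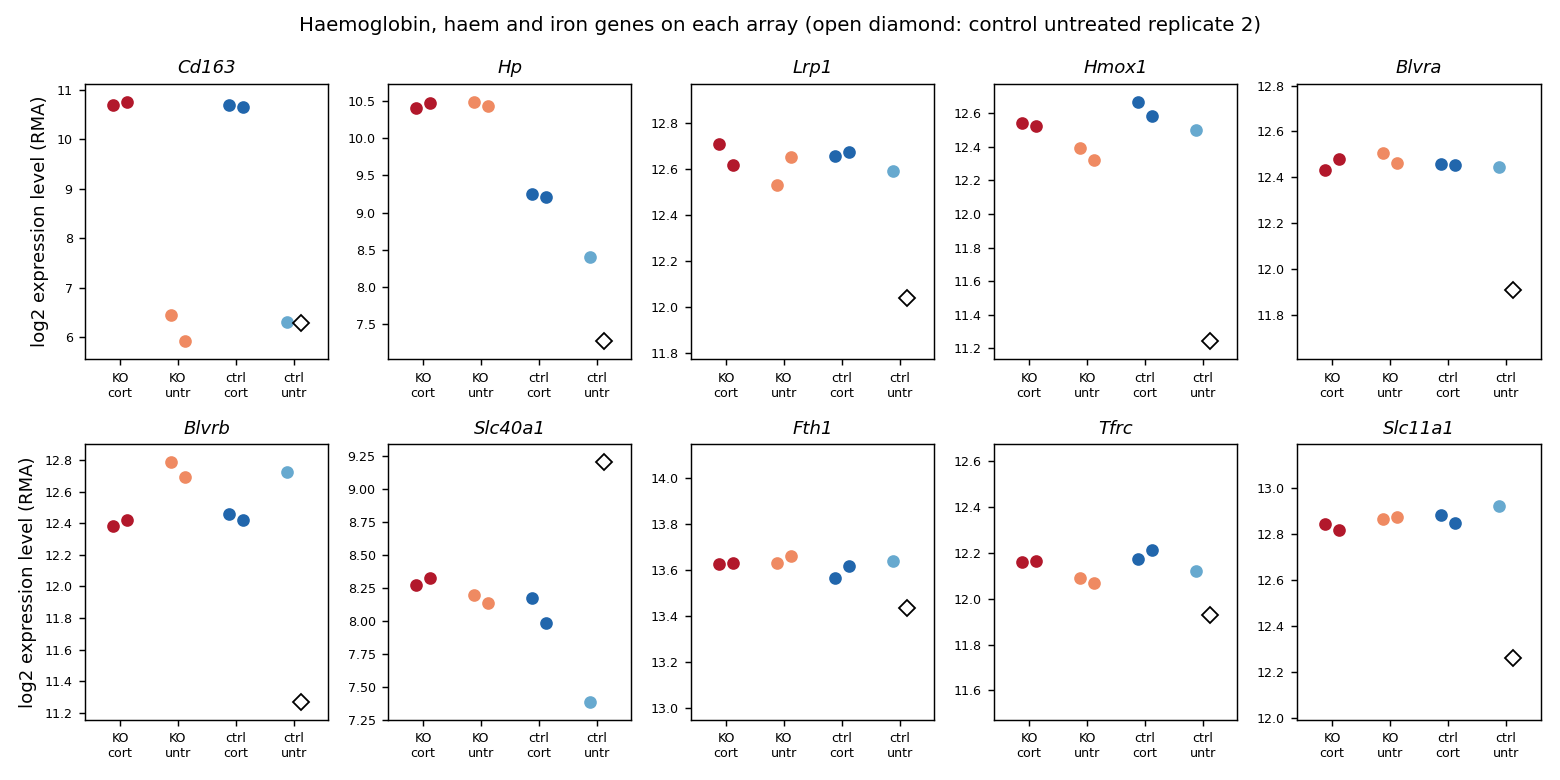
Level of each of the 10 genes (log2, vertical axis) on each array, by group; each panel has its own scale, each filled point is 1 array and the open diamond is the second untreated control array. Cd163 is high in both corticosterone groups, Hp is high in both knockout groups, and the other 8 genes vary little apart from the open diamond and Slc40a1 on the other untreated control array.

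Cd163 read 10.69 and 10.77 in knockout cells with corticosterone and 6.44 and 5.92 in knockout cells without it. In control cells it read 10.69 and 10.65 with corticosterone and 6.30 and 6.29 without. The 4 hormone-treated arrays lay between 10.65 and 10.77, far above the untreated arrays at 5.92 to 6.44, and the array that stood apart elsewhere read Cd163 like its replicate.

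The hormone raised Cd163 by 4.55 ± 0.14 log2 units in knockout cells (SE, 7 arrays), a 23.4-fold rise with limma adjusted p = 7.12e-08. In control cells it rose by 4.37 ± 0.17, or 20.7-fold (adjusted p = 4.64e-07). With 8 arrays the sizes were the same and the adjusted p was 0.00766 and 0.00939; these 8-array calls were lost when single arrays were left out, without either knockout corticosterone array (adjusted p 0.3 and 0.324 in knockout cells, 0.127 for each in control cells) or either control corticosterone array (0.0904 and 0.0902, and 0.264 and 0.28), and in knockout cells also without the second knockout untreated array (0.0508), although the change stayed between 4.29 and 4.81. With 7 arrays Cd163 passed under all 12 alternatives in knockout cells and all 11 in control cells.

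No genotype difference passed for Cd163. Knockout minus control was 0.06 log2 units with corticosterone (95% interval −0.25 to 0.37) and −0.12 without it (−0.50 to 0.26). The interaction was 0.17 (−0.32 to 0.66, adjusted p = 0.959), an interval that holds responses up to 0.66 larger in knockout cells. Without the first knockout untreated array the genotype difference without hormone was −0.38 (adjusted p = 0.0262), the single alternative of 11 in which it passed.

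The promoter of Cd163 is shown because its gene moved most and because receptors for corticosterone bind DNA through copies of a short motif, AGAACA on one strand or TGTTCT on the other. The window runs from 250 bases before the annotated start to 50 after it (RefSeq, GRCm38.p6, chr6:124304401-124304700, plus strand), with every match in capitals.
Cd163 promoter: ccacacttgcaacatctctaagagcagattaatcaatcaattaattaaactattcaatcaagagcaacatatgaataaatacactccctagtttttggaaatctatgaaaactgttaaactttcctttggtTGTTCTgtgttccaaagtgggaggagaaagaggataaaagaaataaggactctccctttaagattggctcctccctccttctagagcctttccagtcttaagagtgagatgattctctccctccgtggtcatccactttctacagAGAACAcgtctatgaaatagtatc
It holds 2 matches, at positions −119 and 27 from the start, and no match to ACANNNTGT, the paired form of the motif. The windows of the other 6 members in the table held no AGAACA match; Hp, Hmox1 and Slc40a1 were not in it. Of 32851 mouse promoters of this length, 18.97% held AGAACA on either strand and 6.85% held ACANNNTGT, so a match is common and is not evidence of binding. TGACNNNGC, a simplified form of the element through which NRF2 drives haem and iron genes, matched once in the windows of Lrp1 (position −160) and Blvra (−49), and in 12.39% of all windows.

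By Pearson correlation over the 7 arrays, the genes most like Cd163 were Mertk (0.9997), a receptor for the engulfment of dying cells, Sult1a1 (0.999), a sulfotransferase, and Per1 (0.9986), a clock gene that glucocorticoids induce. Over all 8 arrays the values were 0.9956, 0.9719 and 0.9342. These correlations follow 2 levels, with and without hormone, shared by all such genes, and are a description.

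Hp had the opposite pattern: its level followed genotype more than hormone. It read 10.40 and 10.48 in knockout cells with corticosterone and 10.50 and 10.44 in knockout cells without. Control cells read 9.25 and 9.21 with corticosterone and 8.40 and 7.27 without, the last on the array that stood apart. All 4 knockout arrays lay above all 4 control arrays, and the knockout arrays lay between 10.40 and 10.50 whether or not hormone was present.

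Without hormone Hp was higher in the knockout by 2.07 ± 0.06 log2 units, 4.20-fold (SE, 7 arrays, limma adjusted p = 6.83e-07, 95% interval 1.93 to 2.21). With corticosterone it was higher by 1.21 ± 0.05, 2.31-fold (adjusted p = 2.58e-06, interval 1.10 to 1.32), a comparison of 2 arrays with 2 that does not use the odd array's values. With 8 arrays the differences were 2.63 ± 0.35 (adjusted p = 0.463) and 1.21 ± 0.35 (adjusted p = 1). There the odd array enters the spread that all groups share: the median absolute difference between replicates was 0.472 in control untreated cells, against 0.0716 to 0.0964 in the other groups. The 7-array calls held under all 11 alternatives without hormone and all 12 with corticosterone. All 11 kept the single untreated control array, so they do not test its value.

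Corticosterone raised Hp in control cells by 0.83 ± 0.06, 1.78-fold (7 arrays, adjusted p = 3.4e-05; with 8 arrays 1.40, adjusted p = 0.416). In knockout cells the change was −0.03 (interval −0.14 to 0.09, adjusted p = 0.815). The response in knockout cells minus that in control cells was −0.86 ± 0.08 (7 arrays, adjusted p = 0.0105; 8 arrays −1.42, adjusted p = 0.719). This interaction passed in 6 of 11 alternatives, with adjusted p from 0.00466 to 0.537, and rests on 1 untreated control array; it did not pass without the first (0.249) or second (0.176) control corticosterone array or without the first knockout corticosterone array (0.0887).

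**Figure D2:**
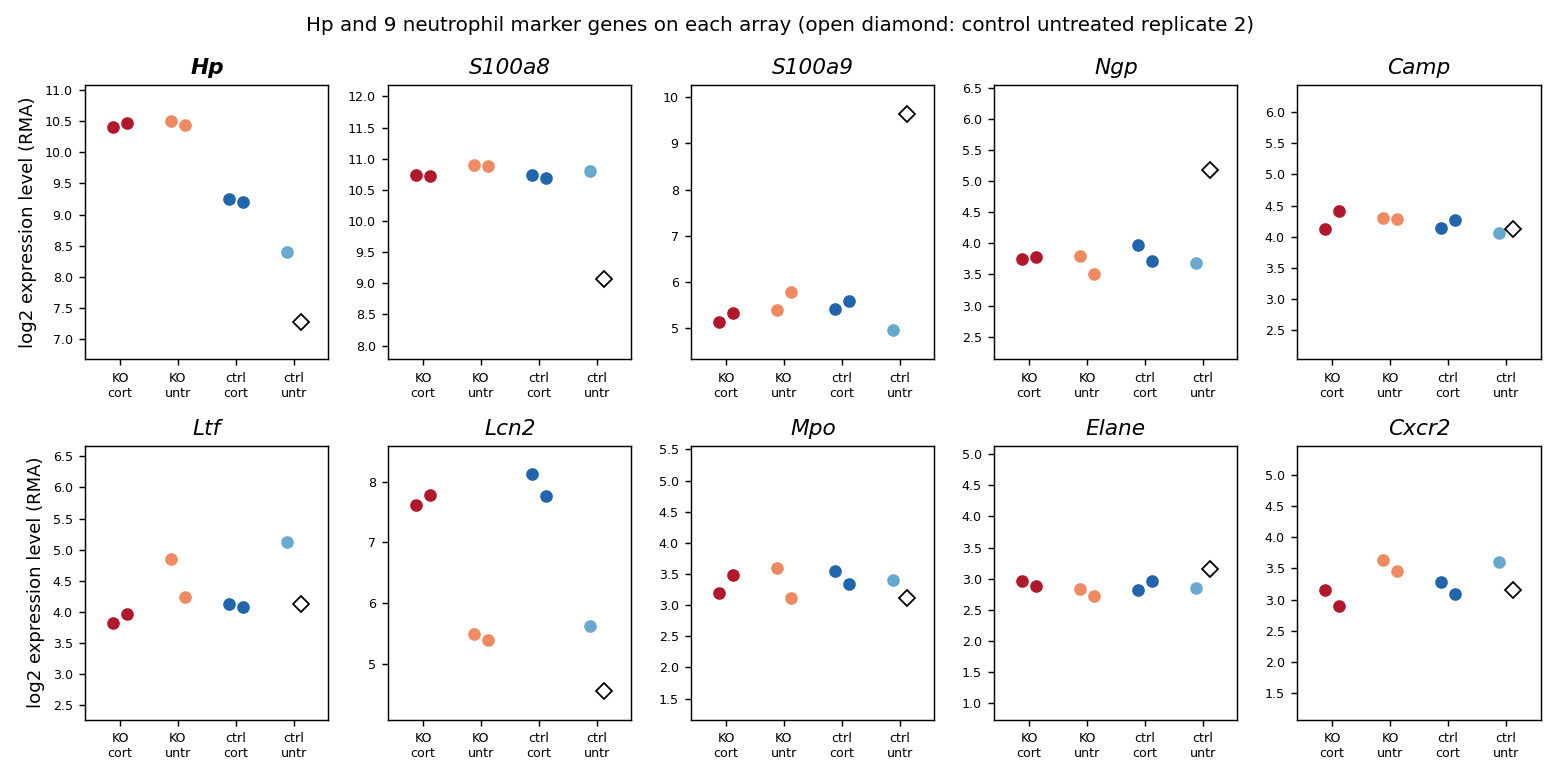
Level (log2, vertical axis) of Hp and of the measured neutrophil markers on each of the 8 arrays, by group; each panel has its own scale and the open diamond is the second untreated control array. Hp is about 10.4 to 10.5 on the knockout arrays and 9.25 or lower on the control arrays, while S100a8 lies between 10.69 and 10.90 on 7 arrays and is 9.07 on the odd one.

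Neutrophils store haptoglobin, so their markers were read beside Hp. Of 11 markers 9 were measured, and 0 passed limma's test in either genotype comparison with 7 arrays. Of all genes 1.63% passed with corticosterone and 1.99% without, so 0 of 9 lies near those shares. Whether the number of neutrophils differed was not tested. The mean over the 9 markers was 4.95 and 5.03 in knockout cells with corticosterone and 4.98 and 4.82 without. It was 5.13 and 5.06 in control cells with corticosterone and 4.90 on the first control array without. The largest differences of knockout minus control without hormone were S100a9, at 0.63, the direction of Hp, and Ltf, at −0.56. With corticosterone the largest was S100a9, at −0.27. S100a9 read 5.14 and 5.34 in knockout cells with corticosterone and 5.39 and 5.78 without, against 5.42 and 5.59 in control cells with corticosterone and 4.96 and 9.65 without. On the 7 arrays Lcn2 ranged from 5.39 to 8.12, Ltf from 3.82 to 5.12, S100a8 from 10.69 to 10.90, and Camp, Ngp, Mpo, Elane and Cxcr2 from 2.72 to 4.41. Cell cycle genes did move with genotype: 9 of 11 measured were higher in the knockout with corticosterone and 4 of 11 without, and their part in the Hp difference was not tested.

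The genes most like Hp over 7 arrays were Ocel1 (r = 0.9948), Tmem176b (0.9942) and Tmem176a (0.9934), a pair of related membrane protein genes. Over 8 arrays Ocel1 kept 0.9939, while Tmem176b had 0.3755 and Tmem176a −0.1349, so the likeness of the last 2 to Hp depends on leaving out the odd array.

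Lrp1 stayed level. Its brighter probe set read 12.71 and 12.62 in knockout cells with corticosterone, 12.53 and 12.65 without, 12.66 and 12.67 in control cells with corticosterone, and 12.59 and 12.04 without. The groups overlapped apart from the odd array. The hormone change was 0.07 in each genotype (7 arrays, adjusted p = 0.36 in knockout and 0.499 in control cells); it passed in knockout cells only without the second knockout untreated array (0.13, adjusted p = 0.0421). The second probe set ranged from 9.34 to 9.56 on 7 arrays and read 8.22 on the odd one.

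**Figure D3:**
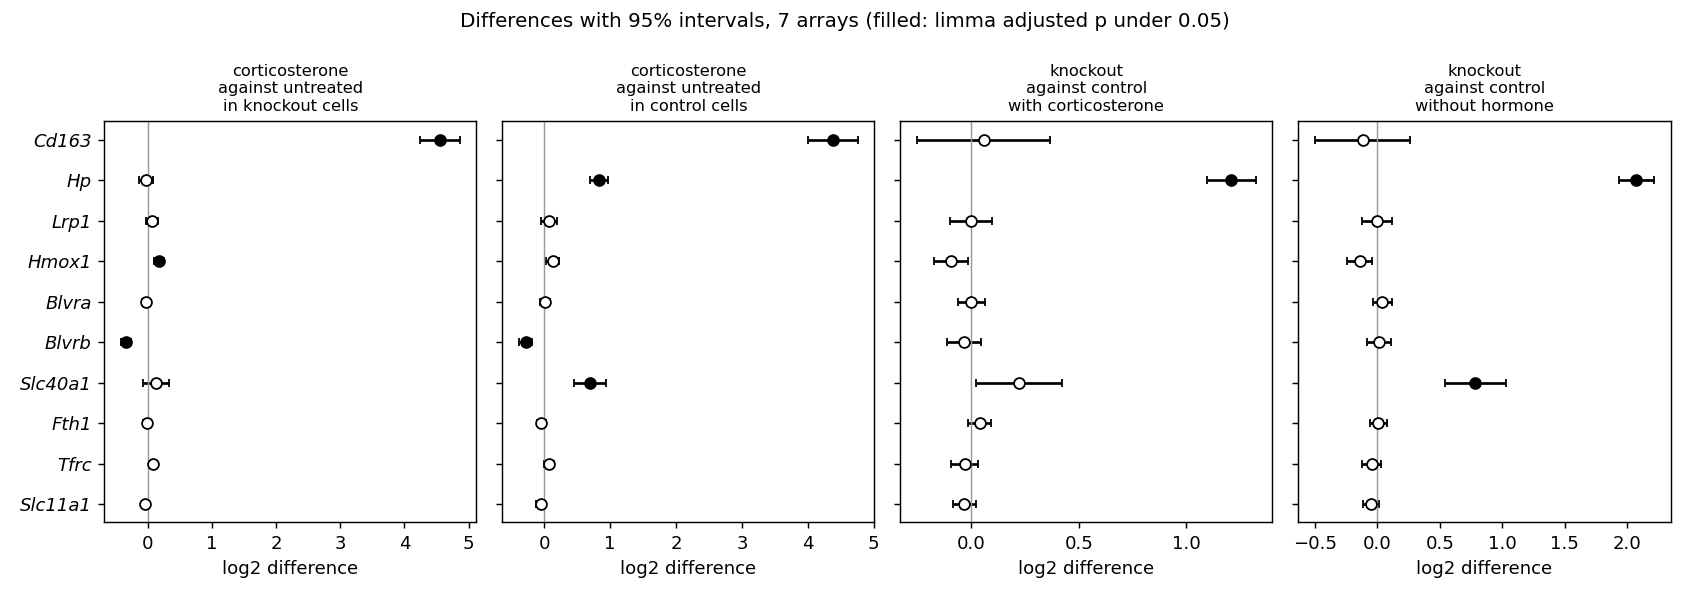
Difference in log2 level (horizontal axis) with its 95% interval for each of the 10 genes in the hormone and genotype comparisons, with 7 arrays; each panel has its own scale and filled points passed limma's test. Cd163 lies near 4.5 for the hormone in both genotypes, Hp at 1.21 and 2.07 for genotype, and most other genes near 0.

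Among the genes of haem breakdown, Blvrb fell with the hormone in both genotypes, Hmox1 rose slightly in knockout cells and did not pass in control cells, and Blvra passed in neither (7 arrays). Hmox1, the inducible haem oxygenase, read 12.54 and 12.53 in knockout cells with corticosterone and 12.40 and 12.32 without. In control cells it read 12.67 and 12.59 with corticosterone and 12.50 and 11.24 without. Treated arrays lay above untreated arrays of the same genotype. The difference was 0.18 ± 0.04 in knockout cells (7 arrays, adjusted p = 0.00985) and 0.13 ± 0.04 in control cells (adjusted p = 0.108).

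The Hmox1 call in knockout cells was lost without the first (adjusted p = 0.0741) or second (0.0564) knockout corticosterone array and without the variance trend (0.163). In control cells it passed in 3 of 11 alternatives: without the first (0.0432) or second (0.0424) knockout untreated array, and with a replicate block (0.0382). Knockout minus control was −0.10 with corticosterone and −0.14 without (adjusted p = 0.401 and 0.172); the second passed without the first knockout untreated array (−0.18, adjusted p = 0.041). With 8 arrays Hmox1 passed in no comparison.

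Blvrb, which encodes the reductase also known as flavin reductase, read 12.38 and 12.42 in knockout cells with corticosterone and 12.78 and 12.69 without. In control cells it read 12.46 and 12.42 with corticosterone and 12.72 and 11.27 without. On the 7 arrays every treated array lay below every untreated one. Blvrb fell by 0.33 ± 0.03 log2 units in knockout cells (adjusted p = 0.000168), and this call held under all 12 alternatives.

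In control cells the fall was 0.28 ± 0.04 with 7 arrays (difference −0.28, adjusted p = 0.0022), lost only without the variance trend (0.103). With 8 arrays the control difference had the opposite sign, 0.44 (adjusted p = 0.544), because the odd array read 1.45 below its replicate. Genotype differences of Blvrb were −0.04 with corticosterone and 0.01 without, and neither passed.

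Blvra, the main reductase of biliverdin, lay between 12.43 and 12.51 on the 7 arrays and read 11.91 on the odd one. Its hormone change was −0.03 in knockout cells (95% interval −0.09 to 0.04) and 0.01 in control cells (−0.07 to 0.09). Of the 2 reductase genes, Blvrb passed the hormone test and Blvra did not; the difference between them was not tested.

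Of the iron genes, Slc40a1 moved and the other 3 did not pass. Slc40a1, the only known exporter of iron from cells, read 8.28 and 8.32 in knockout cells with corticosterone and 8.20 and 8.14 without on its brighter probe set. Control cells read 8.17 and 7.98 with corticosterone and 7.39 and 9.20 without. The untreated control arrays were thus the lowest and the highest of the 8, and the other 6 lay between 7.98 and 8.32.

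With 7 arrays, where the value of 7.39 stands for the untreated control group, Slc40a1 was higher in knockout than in control cells without hormone by 0.78 ± 0.11 (1.72-fold, adjusted p = 0.00621). This genotype call held in 9 of 11 alternatives and was lost without the variance trend (0.0823) and when both probe sets were averaged. Slc40a1 was higher with corticosterone than without in control cells by 0.69 ± 0.11 (1.61-fold, adjusted p = 0.00289), in 10 of 11 alternatives. With 8 arrays these differences were −0.13 (adjusted p = 0.897) and −0.22 (adjusted p = 0.821), so both signs rest on which untreated control array is used. In knockout cells the hormone change was 0.13 (adjusted p = 0.43), and with corticosterone the genotype difference was 0.22 (adjusted p = 0.435); neither uses the odd array's values.

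The second Slc40a1 probe set was dim, between 3.36 and 4.11 on the 7 arrays and 2.56 on the odd one. Its differences were 0.25 for genotype without hormone and 0.10 for the hormone in control cells, and neither passed. With the mean of both probe sets the gene read 0.52 (adjusted p = 0.194) and 0.39 (adjusted p = 0.185), so the call came from the brighter set alone. The Slc40a1 interaction was −0.56 with an unadjusted p of 0.00298 and an adjusted p of 0.804.

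Fth1, the heavy chain of ferritin, was near the top of the scale on every array, at 13.56 to 13.66 on 7 arrays and 13.43 on the odd one for the brighter probe set. Its second probe set lay between 13.48 and 13.55, and 13.57 on the odd array. The hormone and genotype differences of Fth1 lay between −0.05 and 0.04 with 7 arrays, and none passed. Whether its probes were saturated was not tested.

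Slc11a1, the phagosome iron and manganese transporter also called NRAMP1, lay between 12.82 and 12.92 on 7 arrays and read 12.26 on the odd one. Its 4 hormone and genotype differences lay between −0.06 and −0.03 and none passed.

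Tfrc, the transferrin receptor through which cells import iron, read 12.16 and 12.16 in knockout cells with corticosterone and 12.09 and 12.07 without on its brightest probe set. Control cells read 12.17 and 12.21 with corticosterone and 12.12 and 11.93 without. Treated arrays lay above untreated ones in each genotype, by 0.08 in knockout cells (adjusted p = 0.0831) and 0.07 in control cells (adjusted p = 0.262), and neither difference passed.

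The Tfrc probe sets departed by unequal amounts on the odd array. The brightest set read 11.93 there, against 12.12 on its replicate. Of the other 2 sets that are not array controls, the brighter read 6.98 there, against 7.86 to 8.36 on the other 7 arrays, and the dimmer read 4.55, against 6.50 to 7.26. Of the array controls, the 3′ set read 7.24 on the odd array, against 7.94 to 8.43 on the rest, the middle set 3.83, against 5.72 to 6.35, and the 5′ set 3.37, against 4.86 to 5.47. All 6 sets were lowest on the odd array, and the brightest departed least from its replicate.

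**Figure D4:**
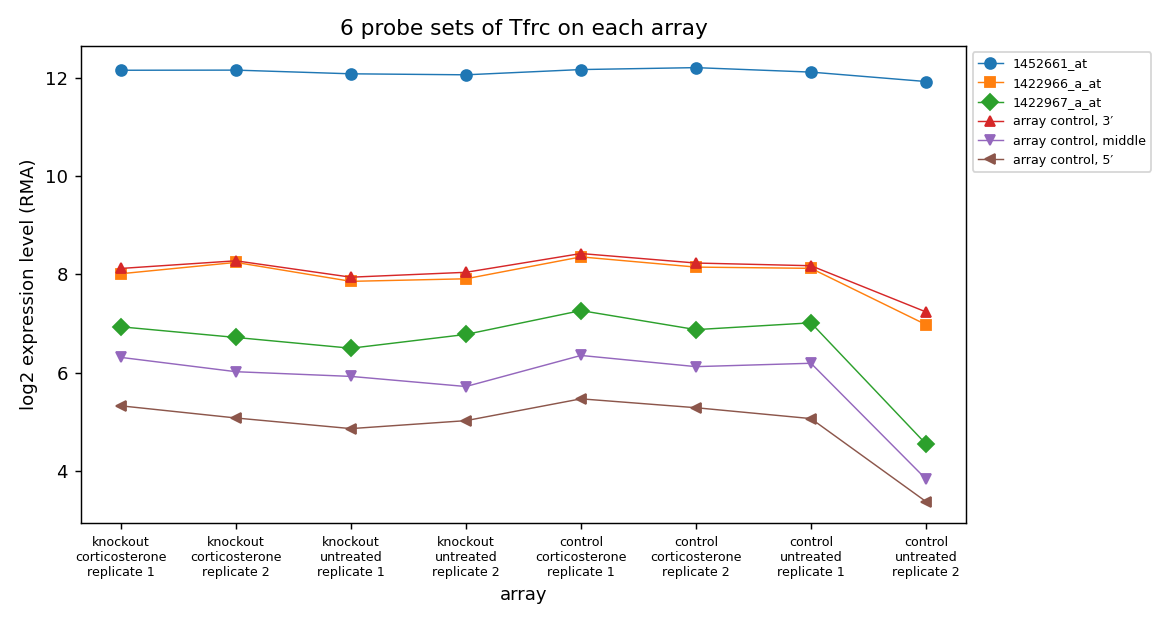
Level (log2, vertical axis) of the 6 Tfrc probe sets on each of the 8 arrays. The brightest set lies between 12.07 and 12.21 on 7 arrays and at 11.93 on the second untreated control array, where the middle and 5′ array controls are 3.83 and 3.37.

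Beyond the 10 genes, 4 lists of the wider pathway were read with 7 arrays. The counts of each list stand beside the shares of all genes that passed with corticosterone. In knockout cells 5.75% of all genes rose and 7.95% fell, and in control cells 4.85% rose and 5.95% fell. Of 11 further genes for haem uptake, transport and their control, 1 rose and 3 fell with corticosterone in each genotype. Slc48a1, which carries haem out of the lysosome, fell by 0.48 in knockout cells and by 0.59 in control cells (log2 units), and Nfe2l2, which encodes NRF2, fell by 0.19 and by 0.20. Hmox2, the constitutive haem oxygenase, rose by 0.19 and by 0.20. Slc46a1, a folate and haem carrier, fell by 0.25 in knockout cells, and Flvcr1, a haem exporter, fell by 0.22 in control cells. The median change of the list was −0.09 in knockout and −0.07 in control cells. The changes in control cells rest on the first untreated control array. The odd array read Slc48a1 at 10.81, below the treated control arrays at 11.30 and 11.29. Nfe2l2 read 12.12 there, below 12.36 and 12.33, and Flvcr1 read 10.81, below 11.44 and 11.51. Against that array these falls had the opposite direction. Hmox2 read 11.67 there, below 12.47 and 12.46, the direction of its rise.

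Slc48a1 passed in every alternative in both genotypes. The others passed in fewer: Slc46a1 in 5 of 11, Nfe2l2 in 10 of 11 and 9 of 10, Hmox2 in 10 of 11 and 7 of 10, and Flvcr1 in 7 of 10. Without the first or second control corticosterone array the Hmox2 rise in control cells had adjusted p = 0.0728 and 0.0669, and without the first Flvcr1 had 0.0563. Slc46a1 was lost without the first control corticosterone array (0.051), the first knockout untreated array (0.0822) or either knockout corticosterone array (0.108 and 0.174).

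Of 26 measured iron handling genes, 4 rose and 3 fell in knockout cells and 3 rose and 3 fell in control cells, with medians of −0.05 and −0.04. Lcn2, whose product binds the iron carriers of bacteria, rose most. It is also 1 of the neutrophil markers. It read 7.62 and 7.78 in knockout cells with corticosterone and 5.50 and 5.39 without, against 8.12 and 7.77 in control cells with corticosterone and 5.63 and 4.55 without. The rise was 2.25 in knockout cells and 2.31 in control cells. Hfe, the haemochromatosis gene, rose by 0.57 and 0.43, and Slc39a8, a zinc, manganese and iron importer, by 0.61 and 0.68. These 3 genes passed under every alternative in which they were tested.

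Ncoa4, which delivers ferritin for breakdown, fell by 0.22 in knockout cells and by 0.28 in control cells. The odd array read Ncoa4 at 11.55, below the treated control arrays at 11.95 and 11.96. It read Slc11a2 at 7.07, below 9.12 and 9.13, so both falls in control cells rest on the first untreated control array. Hfe (9.32), Slc39a8 (7.94) and Lcn2 (4.55) also read below the treated control arrays there, the direction of their rise. Slc11a2, the transporter DMT1, fell by 0.35 in knockout cells, under all 11 alternatives, and by 0.29 in control cells, where it passed in 4 of 10. Slc39a14 fell by 0.30 and Fbxl5, an iron sensor, rose by 0.16 in knockout cells, and Ltf, lactoferrin, fell by 1.01 in control cells (adjusted p = 0.0267). Without the first or second control corticosterone array 1 gene in place of 3 fell in control cells: Slc11a2 then had adjusted p = 0.18 and 0.177, and Ltf 0.119 and 0.14. Ncoa4 passed in 10 of 11 alternatives in knockout cells and 9 of 10 in control cells, Slc39a14 in 5 of 11, Fbxl5 in 4 of 11 and Ltf in 5 of 9.

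Of 8 measured genes of haem synthesis, 2 fell in each genotype, with medians over the list of 0.03 in knockout and −0.04 in control cells. Alas1, the rate-limiting enzyme of haem synthesis outside red cells, read 10.53 and 10.51 in knockout cells with corticosterone and 11.80 and 11.90 without, against 10.50 and 10.53 in control cells with corticosterone and 11.88 and 11.42 without. Treated and untreated arrays did not overlap. Alas1 fell by 1.33 in knockout cells (adjusted p = 8.5e-08) and by 1.36 in control cells (adjusted p = 4.46e-07), under every alternative. Alad, the next enzyme, fell by 0.33 and by 0.40.

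Of 10 measured scavenger receptors, a class to which CD163 also belongs, 2 rose in each genotype, with medians of 0.08 in knockout and 0.09 in control cells. Lyve1, a hyaluronan receptor, rose by 3.52 in knockout cells and 3.83 in control cells. Stab1, a clearance receptor, rose by 1.02 and 1.21. Both passed under every alternative in which they were tested; without the first knockout untreated array 4 rose in knockout cells.

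**Figure D5:**
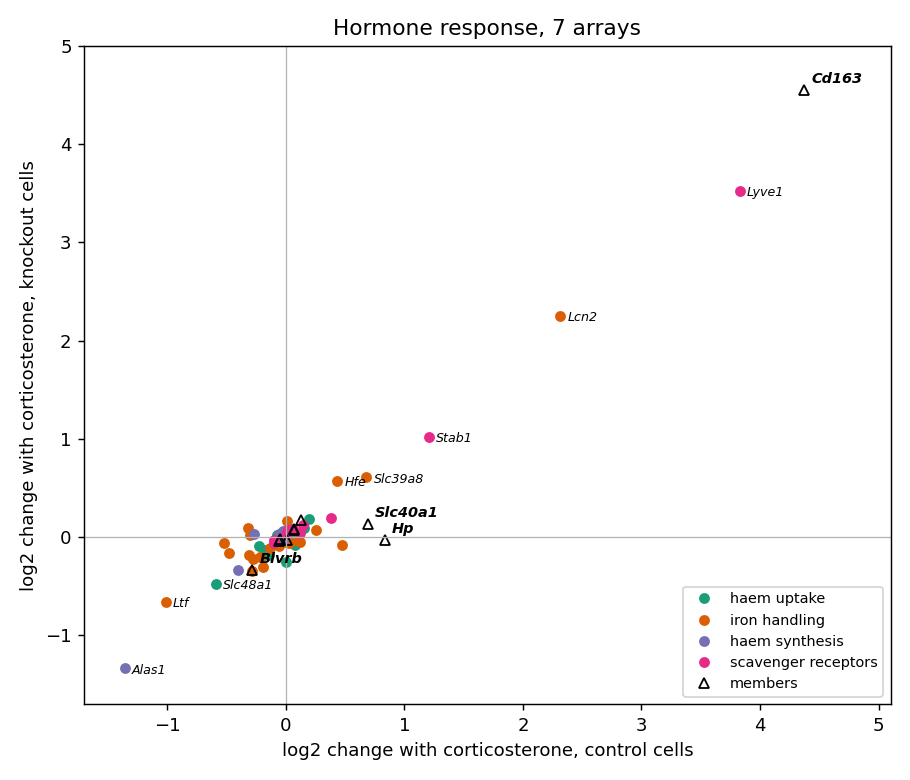
Change with corticosterone (log2) in knockout cells (vertical axis) against control cells (horizontal axis) for the genes of the 4 wider lists and the 10 genes, with 7 arrays; both axes use separate arrays and each point is 1 gene. Cd163, Lyve1, Lcn2 and Stab1 lie in the upper right and Alas1 in the lower left.

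In the genotype comparisons 0 of 26 iron handling genes and 0 of 8 haem synthesis genes passed limma's test with 7 arrays. Of all genes 1.63% passed with corticosterone and 1.99% without. A count of 0 in lists of this size lies near those shares and does not set the lists apart. The median difference of the iron genes was 0.005 with corticosterone and −0.02 without, and that of the haem synthesis genes 0.03 and −0.03. Single iron genes ranged from −0.25 (Lcn2) to 0.43 (Cybrd1) with corticosterone. Without hormone they ranged from −0.56 (Ltf) to 0.78 (Bmp6). In the haem uptake list Flvcr1 read 11.46 and 11.47 in knockout cells without hormone. Untreated control cells read 11.70 and, on the odd array, 10.81, so the sign of its difference rests on which array is used. That list also held Cd5l, a secreted protein of tissue macrophages that is not itself a haem carrier. Cd5l was higher in the knockout by 0.46 with corticosterone (limma adjusted p = 0.000735) and by 0.41 without (adjusted p = 0.0048). Flvcr1 was lower by 0.23 without hormone (adjusted p = 0.0285), a difference of −0.23 that passed in 3 of 10 alternatives and was lost without either corticosterone array of either genotype (adjusted p 0.0559 to 0.0655). The Cd5l calls were lost only without the variance trend (adjusted p = 0.0622 and 0.123). Of the scavenger receptors, Marco was higher in the knockout by 0.80 with corticosterone and 0.82 without (adjusted p = 4.16e-05 and 0.000174); the second was lost only without the variance trend (0.0519). It read 11.25 and 11.30 in knockout cells with corticosterone and 11.22 and 11.07 without, against 10.50 and 10.45 in control cells with corticosterone and 10.33 and 8.73 without, so no array of one genotype overlapped the other.

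Stab1 was higher in the knockout by 0.20 and 0.39, and Mrc1, the mannose receptor, differed by −0.17 and −0.24. With corticosterone both were lost when any 1 of the 4 corticosterone arrays was left out (adjusted p 0.211 to 0.345 for Stab1 and 0.196 to 0.275 for Mrc1). Stab1 passed in 5 of 11 alternatives with corticosterone and 9 of 10 without, and Mrc1 in 5 of 11 and 6 of 10. Without hormone Mrc1 was lost without either control corticosterone array (0.0559 for each), with adjusted p up to 0.232 over its alternatives. None of the 55 measured genes of the 4 lists passed limma's interaction test. With 8 arrays 1 scavenger receptor rose with the hormone in control cells and no other gene of the lists passed in any comparison.

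Markers of other cells also moved with the hormone. Of all genes, 5.75% rose and 7.95% fell in knockout cells, and 4.85% rose and 5.95% fell in control cells. With 7 arrays 4 of 5 measured B cell markers and 5 of 6 T and NK cell markers fell in each genotype. Cell cycle genes fell as well, 11 of 11 in knockout cells and 10 of 11 in control cells. The B cell list averaged 6.54 and 6.64 in knockout cells with corticosterone and 7.93 and 7.76 without, against 6.48 and 6.56 in control cells with corticosterone and 7.55 on the first control array without. Of 8 macrophage markers, 4 rose and 1 fell in each genotype. Between genotypes (7 arrays), the macrophage marker Cd14 was higher in the knockout by 0.16 with corticosterone and 0.28 without. The macrophage list had medians of 0.002 and −0.02. The B cell marker Cd79a was higher by 0.07 and 0.51, in a list with medians of 0.07 and 0.28. Fewer cells of a type and less RNA per cell cannot be told apart in these bulk samples. The part of these shifts in the changes of the haem and iron genes was not tested.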

How the data were processed

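RNA from 8 pools of macrophages, 2 in each of 4 groups, was read on Affymetrix arrays. The values are log2 expression levels as deposited by the authors; the submitters' processing notes name RMA and R 2.7. RMA makes the array distributions alike (medians 5.55 to 5.58), so a change in total RNA leaves no trace. No detection calls were used, and the number of arrays limits the precision. From these values a gene's level was that of its brightest probe set by the mean of all 8 arrays, after 64 control sets were dropped, which left 18193 genes. limma 3.58.1 in R 4.3.3 was fitted with 1 coefficient per group and a variance trend, with Benjamini-Hochberg adjustment over all genes and calls under 0.05; all adjusted p-values are limma's, and 95% intervals are of single differences. The alternatives were a replicate block, no variance trend, the mean of a gene's probe sets, single probe sets, genes above the median level, and leaving out each array in turn. The script was tested on simulated data. The labels do not say what a replicate number shares, so the main fits used no pairing. Correlations of replicate differences between groups ran from −0.292 to 0.397, the highest between the untreated groups. Such correlations cannot show whether the arrays were paired.

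The 10 genes, the lists and the choice of 7 arrays were made with earlier results of these data known. Named beside the 10 are, per wider list, up to 4 called genes per direction and hormone comparison, every called gene in the genotype comparisons, and the 3 genes most correlated with each member whose range exceeded 1 log2 unit over 7 arrays. Marker genes and Hba-a1 are named as checks. Promoter sequences are RefSeq's, of assembly GRCm38.p6.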

Additional observations from a re-analysis of the deposited data

Results flagged for a closer look

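The response of Hp to corticosterone differed between genotypes by a test of the difference itself: knockout minus control was −0.86 log2 units (−0.8611, limma adjusted p = 0.0105 with 7 arrays, −1.42 and adjusted p = 0.719 with 8). Both knockout groups read 10.40 to 10.50, against 9.21 to 9.25 in control cells with corticosterone and 8.40 on the single untreated control array used with 7 arrays. The call passed in 6 of 11 alternatives, and the only other untreated control array is the one that stood apart.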

How the results depend on the processing

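Over the 10 genes and 5 comparisons, 552 of 570 values recomputed with 7 arrays kept the side of the threshold of the original, 12 lost a call, 6 gained one and 0 called values changed sign; 21 uncalled values changed sign. With 8 arrays the numbers were 601 of 650, 10, 36 and 3, with 23 uncalled sign changes. The 3 values that turned sign and were called all arose without control untreated replicate 2: Blvrb for the hormone in control cells was then −0.28 (0.44 with 8 arrays, 1.17 without control untreated replicate 1), Slc40a1 for the same comparison 0.69 (−0.22 and −1.13) and Slc40a1 for genotype without hormone 0.78 (−0.13 and −1.03). Leaving out each array in turn from the 8, between 0 and 3 members passed for the hormone in knockout cells, 0 and 10 in control cells, 0 and 1 for genotype with corticosterone, 0 and 9 without and 0 and 9 for the interaction; the highest counts in the comparisons that use untreated control cells came without control untreated replicate 1, when the array that stands apart is the whole group. With a replicate block 0 members passed for the hormone in knockout cells with 8 arrays (Cd163 adjusted p = 0.0589), and 0 for the interaction with 7 arrays (Hp −0.87, adjusted p = 0.0943). Without the variance trend 1 member passed for genotype without hormone, as with the mean of probe sets, and 0 for the interaction, with 7 arrays. Leaving out each array from the 7 gave 0 to 1 for the interaction and 2 to 4 for genotype without hormone. The other counts of members stayed within 1.5 times of the original. Shares of all genes were not set beside the counts of these refits. Those counts therefore do not set the members apart from other genes. The control untreated comparisons could not be fitted with 7 arrays without control untreated replicate 1. For the wider lists the variance trend moved the counts most: without it 0 iron genes fell in control cells and 1 in knockout cells. Depth is not defined for arrays; no call of signal over background was used, and dim sets such as the second of Slc40a1 limit what can be seen. The causes of these shifts were not tested.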
